A study of Sus scrofa with 13 samples.

Results

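The liver-restricted genes described here were 87 of the 21607 Ensembl genes listed in 13 pig libraries, or 0.403% of them, and 0.57% of the 15252 that reached 1 RPKM in an organ. A gene was taken when its RPKM, its reads per kilobase of the gene, scaled to the depth of the library, was at least 1 in liver, was higher in liver than in the other 8 tissues sampled at 240 days, and gave a tau of at least 0.9. Tau is an index of restriction that is 0 for a gene at the same level everywhere and 1 for a gene found in 1 tissue only. It was computed over 9 organs on log2(RPKM + 0.1) with log2(0.1) subtracted. These values chose the genes, so the levels in the 9 organs are given as a description. Only 4 libraries were outside the choice, which were muscle at day 0, muscle at day 30 and both mixtures. The gene name table paired 46 of the 87 genes with a symbol, and the other 41 are given by identifier.

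Total RNA of Guizhou mini-pigs, a small breed, was sequenced at 240 days after birth from heart, liver, spleen, lung, kidney, testis, ovary, adipose tissue and longissimus dorsi, the long muscle of the back. Longissimus dorsi was also sequenced at 0 and 30 days. A tissue mixture (multiple tissues, breeds and time points) and a muscle mixture (longissimus dorsi of multiple breeds and time points) were pooled from equal amounts of each RNA, and the labels do not name the RNAs in them. Ribosomal RNA was depleted, and strand-specific libraries were made by SMART or dUTP protocols, and which of them each library had is not given. Each group was 1 library, the labels do not give the number of pigs behind it, and no test between libraries was possible. In bulk tissue, fewer cells of a type and less RNA per cell cannot be told apart.

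The hepatocyte, the main cell of the liver, makes most proteins of blood plasma, forms bile acids, turns ammonia into urea, breaks down amino acids and clears drugs and alcohol. Much of this work rests on genes that few other tissues use at a high level, although the kidney shares several of the metabolic enzymes. A small set of transcription factors, among them HNF4A and C/EBP alpha, drives these genes in combination. The 87 genes included secreted plasma proteins, enzymes of urea formation and of amino acid, drug and alcohol breakdown, bile acid and sterol transporters, and transcription factors.

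The liver label was checked against markers chosen with earlier results of these data known. Of 7 hepatocyte markers measured, among them the members TAT and CYP2E1, all were above 0 in liver, with a summed RPKM of 5963, of which ALB, the albumin gene, had 5495. TAT and CYP2E1 were above 0 there by the rule, so these 2 do not bear on the label. HNF4A, a transcription factor of hepatocytes and kidney tubule, was at 14.6 in liver and 19.2 in kidney, and the identifier named APOA1 was at 0.364 in liver. Other cells of the liver gave less: the summed RPKM in liver was 32.7 over 5 macrophage markers, 8.996 over 5 sinusoidal endothelial markers, 4.75 over 6 stellate cell markers and 0.355 over 3 cholangiocyte markers. Markers of kidney, exocrine pancreas and small intestine summed to 0.176 (5 genes), 0.378 (4 genes) and 2.10 (2 genes), and ACTA1 of muscle fibres was at 1.46. Total reads behind RPKM could be recovered from the steps of the values. They gave between 3620348 and 12394421 reads counted on features in single tissues, of which liver had 3629806, and 32507136 and 18656109 in the mixtures of tissues and of muscle.

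In liver the 87 genes were between 1.02 and 196 RPKM, with a median of 7.84 and quartiles of 2.42 and 18.003. Together they held 67660 reads, 1.86% of those counted in liver, and 2.35% of its summed RPKM. The 5 highest genes had 43.5% of the RPKM of all 87, and 35 genes were at 10 RPKM or more. Reads per gene in liver were between 19 and 6058, with a median of 310. In the other organs the same genes were near or at 0, apart from lung. Of the 87 genes, 77 were listed at 0 in heart, 81 in spleen, 82 in muscle at 240 days, 61 in adipose tissue, 59 in testis, 58 in ovary and 40 in kidney, but 12 in lung. Of all Ensembl genes 64.5% were above 0 in heart, 69.1% in spleen, 60.7% in muscle at 240 days, 72.2% in adipose tissue, 79.7% in testis, 76.9% in ovary, 75.0% in kidney and 77.9% in lung. The rule used these organs, so nothing is read from the counts. A 10-fold or larger gap to every other organ was found for 77 genes, against 1.06% of the 15252 genes. As the rule used this contrast, nothing is read from that count.

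**Figure D1:**
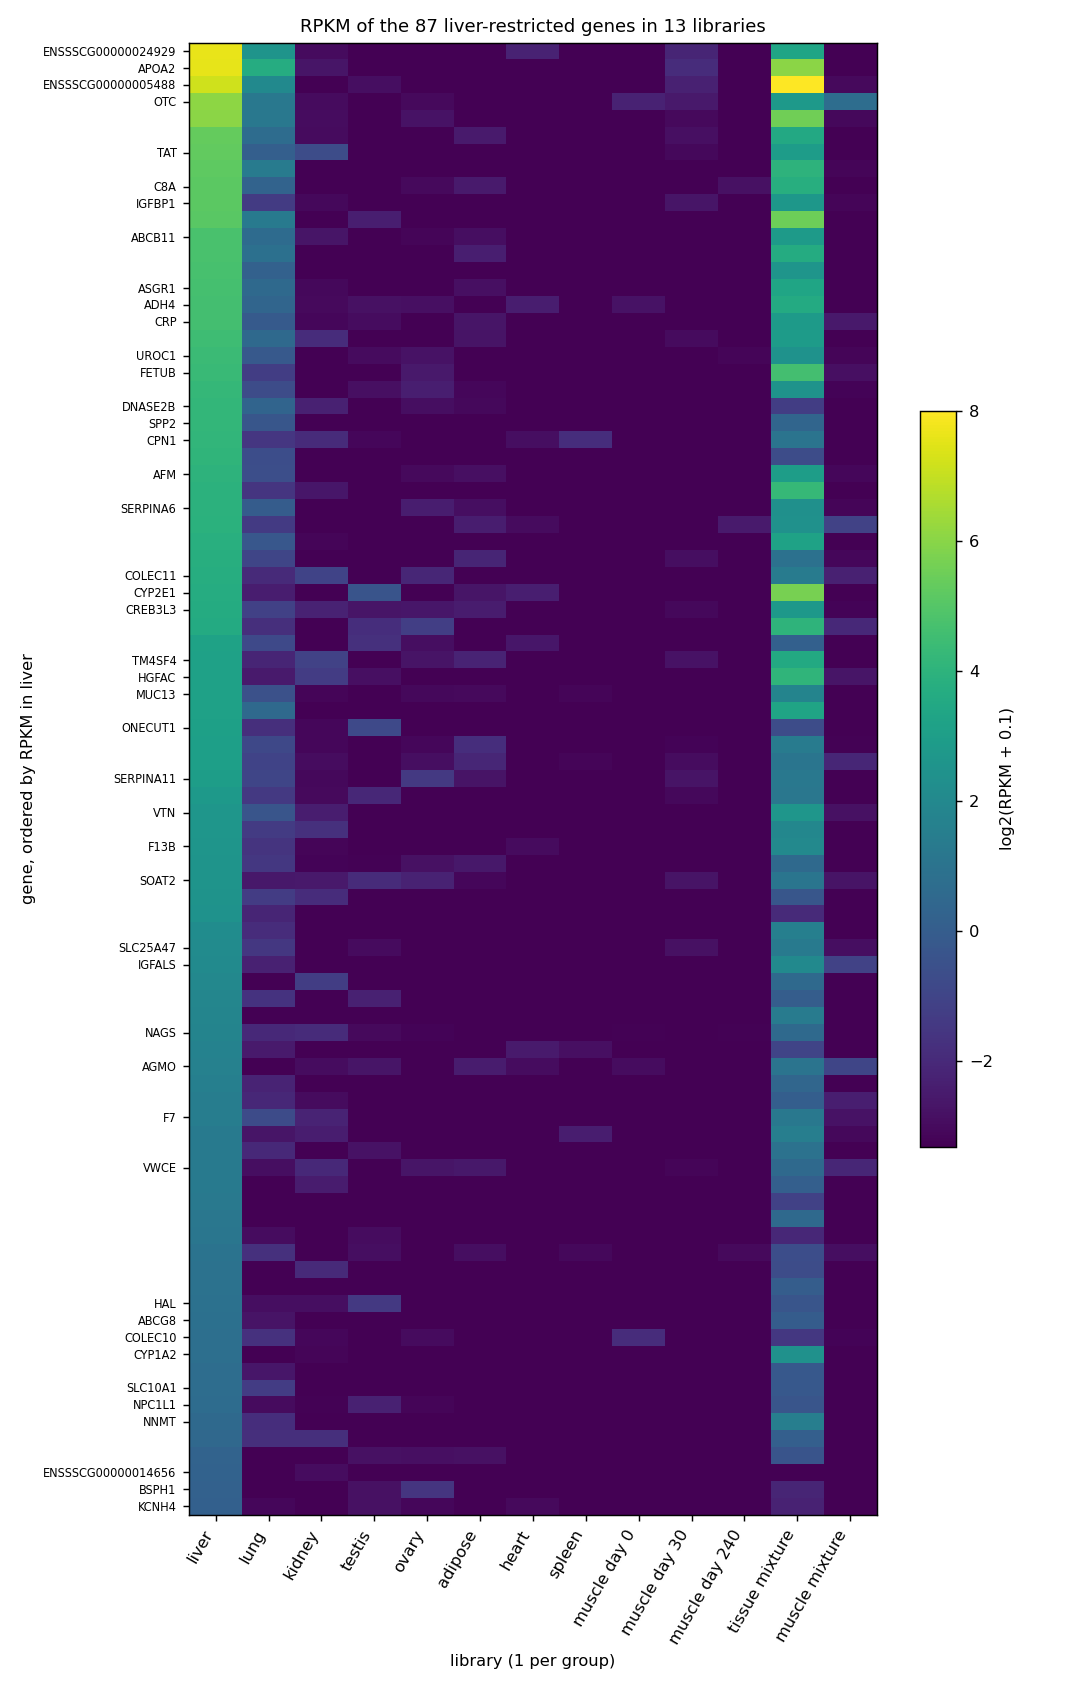
Level of each of the 87 liver-restricted genes (rows, ordered by RPKM in liver) in each of the 13 libraries (columns), as log2(RPKM + 0.1), with the names of genes described in the text. The liver column is bright by the choice of genes, the lung column follows it at a lower level, and the muscle columns are dark for nearly all genes. In the tissue mixture column 86 genes are above 0 and 62 are at 1 RPKM or more.

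The highest gene was ENSSSCG00000024929, which has no symbol here, at 196 RPKM in liver. It was followed by APOA2, which encodes an apolipoprotein of high-density lipoprotein. APOA2 was at 194 RPKM in liver (2835 reads, exact Poisson 95% interval 187 to 201), 12.9 in lung, 0.058 in kidney, 64.6 in the tissue mixture and 0.173 in day 30 muscle, and was listed at 0 in the other 8 libraries. Poisson intervals cover the counting error of reads only. ENSSSCG00000005488 came next in liver at 147 RPKM, with 4.04 in lung and 348 in the tissue mixture. OTC, ornithine transcarbamylase of the urea cycle, was the next with 68.1 RPKM in liver, 2.20 in lung, 0.0244 in kidney, 0.0205 in ovary, 0.112 in muscle at day 0 and 0.0726 at day 30. The tissue mixture held 6.61 RPKM of it, and the muscle mixture 1.57. It was listed at 0 in heart, spleen, testis, adipose tissue and muscle at 240 days. In these 4 genes no single tissue other than liver and lung exceeded the 0.173 RPKM of APOA2 in muscle at day 30.

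Many of the named members encode proteins secreted into plasma. Carriers were FETUB, a fetuin, at 20.4 RPKM in liver, AFM, afamin, which binds vitamin E, at 15.9, SERPINA6, the corticosteroid-binding globulin, at 15.3, and VTN, vitronectin, at 6.12. C8A, a subunit of the membrane attack complex of complement, was at 35.4, and CRP, the acute phase C-reactive protein, at 24.6. CPN1, the catalytic subunit of carboxypeptidase N, was at 17.5 and SPP2, a secreted phosphoprotein, at 17.9. The collectins COLEC11 and COLEC10, soluble lectins of innate defence, were at 13.3 and 1.67. Coagulation was represented by F13B, the carrier subunit of factor XIII, at 5.89, and by F7 at 2.71. Another 3 members act in growth factor signals. IGFBP1, a binding protein of insulin-like growth factors, was at 35.1, HGFAC, the protease that activates hepatocyte growth factor, at 8.93, and IGFALS, which holds insulin-like growth factors in a plasma complex, at 4.23.

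The lipid and bile genes covered export and uptake. SOAT2, which esterifies cholesterol, was at 5.66 RPKM in liver. ABCG8, part of the sterol export pump, was at 1.71 and NPC1L1, a sterol uptake protein, at 1.52. ABCB11, the bile salt export pump, was at 26.9 in liver, 1.46 in lung, 0.0551 in kidney, 0.0331 in adipose tissue, 0.0115 in ovary and 6.997 in the tissue mixture, and was listed at 0 elsewhere. SLC10A1, which takes up bile acids from blood, was at 1.55 in liver (81 reads), 0.303 in lung (19 reads) and 0.761 in the tissue mixture, and was listed at 0 in the other 10 libraries. The exporter thus had the higher RPKM of the pair.

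Of the enzymes of nitrogen metabolism, TAT, which begins the breakdown of tyrosine, was at 38.9 RPKM in liver, 0.969 in lung, 0.521 in kidney, 7.60 in the tissue mixture and 0.0172 in day 30 muscle. It was listed at 0 in the other 8 libraries, and its kidney value was the highest of the 87 genes in that organ. HAL and UROC1, which catalyse successive steps of histidine breakdown, were at 1.75 and 21.0 in liver. NAGS, which makes the activator of the first urea cycle enzyme, was at 3.37 in liver, 0.160 in kidney and 0.145 in lung. Enzymes of drug and alcohol metabolism were ADH4, an alcohol dehydrogenase, at 24.7, CYP2E1, which oxidises ethanol, at 12.8, and CYP1A2, which oxidises caffeine, at 1.65. ASGR1, a receptor that clears desialylated glycoproteins, was at 24.99, and SLC25A47, a mitochondrial carrier, was at 4.30.

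Of the transcription factors, 2 met the rule. CREB3L3, a factor held in the endoplasmic reticulum membrane, was at 12.3 RPKM in liver, 0.362 in lung and 0.110 in kidney, and ONECUT1, also called HNF6, was at 8.47 in liver, 0.467 in testis, 0.186 in lung and 0.0146 in kidney. ONECUT1 was listed at 0 in the other 5 organs. The other 14 factors measured were not members. FOXA3 (tau 0.981) and ONECUT2 (tau 1) were highest in liver, but at 0.826 and 0.369 RPKM. Of the remaining factors, CEBPA (tau 0.805), NR1I2 (0.803), NR1I3 (0.874), NR1H4 (0.703) and PROX1 (0.329) were highest in liver at between 3.02 and 13.1 RPKM. HNF4A and PPARA were highest in kidney, FOXA2 in lung, NR0B2 in testis and NR5A2 in ovary. Of the 9 factors highest in liver, 2 were thus members.

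The rule took few of the genes known for liver functions. Of 175 genes measured in 13 lists of liver pathways, 27 (15.4%) were members, beside 0.403% of all Ensembl genes. The lists name genes known for liver, and they were chosen with earlier results of these data known, so nothing is read from the gap. A further 90 were highest in liver at RPKM of at least 1 with tau under 0.9, 6 were highest in liver under 1 RPKM, 51 were highest in another organ and 1 was listed at 0 in all organs. Of the 51, 29 were highest in kidney. Members numbered 3 of 18 plasma carriers, 2 of 18 coagulation genes, 1 of 16 complement genes, 4 of 16 genes of lipid transport, 2 of 9 bile acid genes, 2 of 7 urea cycle genes, 3 of 24 genes of amino acid breakdown, 0 of 12 genes of glucose and fructose metabolism, 3 of 11 genes of drug metabolism, 2 of 16 transcription factors, 1 of 6 acute phase genes, 3 of 14 hepatokines and growth factors and 2 of 11 solute carriers.

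In the urea cycle, OTC (tau 0.932) and NAGS (tau 0.923) were members. CPS1, the first enzyme of the cycle, was highest in liver at 51.2 RPKM with 1.61 in lung and 0.665 in testis (tau 0.842). ARG1, arginase, was at 31.7 in liver and 2.99 in lung (tau 0.770), and ASL at 33.5 in liver and 22.2 in kidney (tau 0.430). ASS1 was at 67.1 in liver and 135 in kidney, and SLC25A15, the ornithine carrier, at 7.29 in liver and 11.5 in kidney. In bile acid synthesis, CYP7A1, the rate-limiting enzyme, was at 21.6 in liver and 6.78 in lung (tau 0.842), and AKR1D1 at 20.01 and 0.962 (tau 0.862). CYP27A1 (5.70 in liver) and CYP7B1 (1.42) had tau of 0.484 and 0.659. ABCC2, a bile pigment exporter, was at 12.2 in liver and 11.5 in kidney, and SLC51A and SLC51B, which export bile acids through the basal membrane, were listed at 0 in liver.

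**Figure D2:**
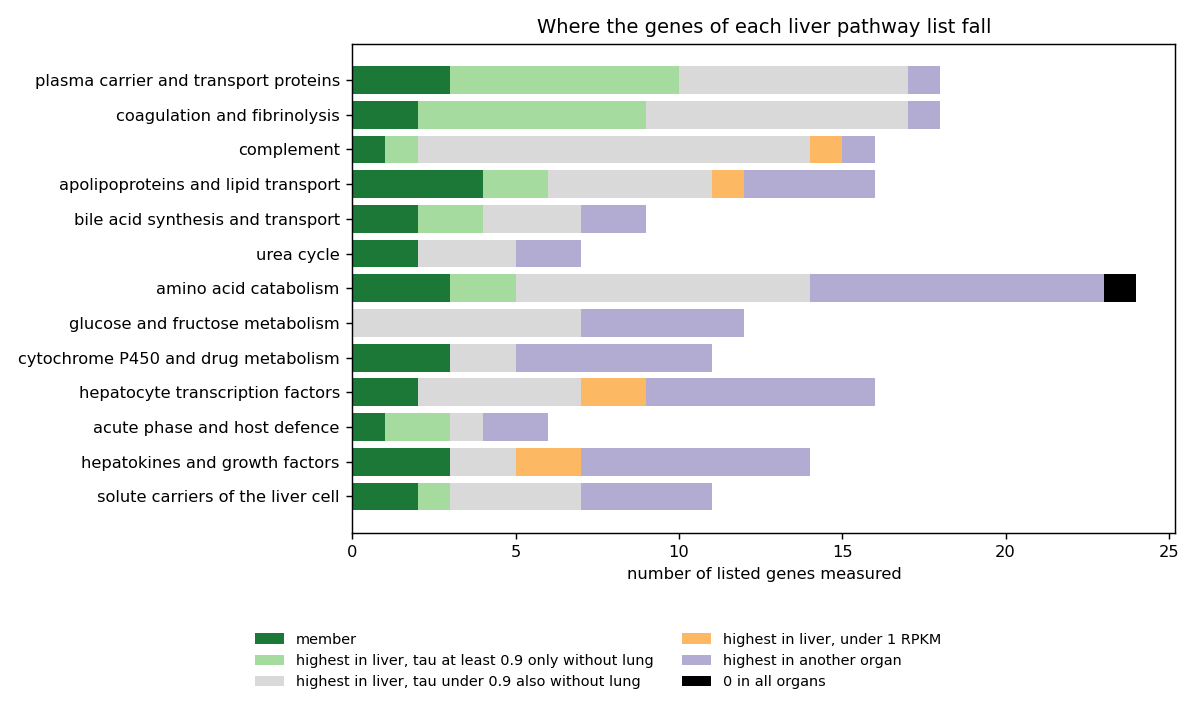
Number of measured genes of each of 13 liver pathway lists (bars), split by whether the gene met the rule, met it only when lung was left out, was highest in liver with tau under 0.9, was highest in liver under 1 RPKM, was highest in another organ or was listed at 0 in all 9 organs. The dark green parts sum the 27 members and 1 repeat, SLC10A1, which stands in 2 lists.

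Lung was the next organ after liver for 60 of the 87 genes, beside 32.2% of the 636 Ensembl genes highest in liver at 1 RPKM or more, members included. The order of the organs was among the values the rule used, so this is a description. Kidney was next for 12, testis for 6, ovary and adipose tissue for 2 each and heart for 1, while 4 genes were listed at 0 in the other 8 organs. The summed RPKM of the members in lung was 62.5, 4.05% of that in liver, against 0.295% in kidney, 0.195% in testis, 0.128% in ovary, 0.110% in adipose tissue, 0.0368% in heart and 0.0225% in spleen. Per gene the lung value was a median of 3.37% of the liver value, with quartiles of 1.52% and 5.41%. All 35 genes at 10 RPKM or more in liver were above 0 in lung, and their lung values were between 0.695% and 6.81% of liver. For 27 of them it was between 2% and 8%. The share depended on the scale, and the median over the 87 genes was 2.71% with libraries at the same total and 1.12% at the same median ratio. Of the 52 genes under 10 RPKM, 40 were above 0 in lung, beside 77.9% of all Ensembl genes. Among pathway list genes highest in liver at 10 RPKM or more that were not members, all 69 were above 0 in lung. Nothing is thus read from the 35 of 35. Lung held 3110 reads of the members, beside 304 in kidney and 218 in testis.

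Within this pattern the named genes differed. IGFBP1 was at 35.1 RPKM in liver (1604 reads) and 0.292 in lung (16 reads, interval 0.167 to 0.474), or 0.832%, and C8A, which was close to it in liver at 35.4, was at 1.13 in lung (86 reads, interval 0.8999 to 1.39), or 3.18%. The counting intervals of the lung values did not overlap. They cover counting error only, and the rule used the lung values, so this is a description. CYP2E1 was at 0.695% of liver in lung, FETUB at 1.53% and CPN1 at 1.40%, while MUC13, a membrane mucin, was at 6.96%, APOA2 at 6.65% and DNASE2B, a deoxyribonuclease, at 6.34%. Among lower genes with a symbol, SLC10A1 was at 19.6%, F7 at 18.2% (0.494 in lung, 26 reads) and NNMT, nicotinamide N-methyltransferase, at 13.3% (4 reads). ENSSSCG00000002482, which has no symbol here, was at 15.4% (28 reads). CYP1A2 and AGMO, alkylglycerol monooxygenase, were listed at 0 in lung, where 3 reads would have given 0.0321 and 0.0856 RPKM.

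Across the 87 genes the lung value ran parallel to the liver value, with a Spearman rho of 0.842 and a Pearson r of 0.872 on the log2 scale, and the corresponding values for kidney were 0.0898 and 0.0455. Genes are not independent replicates, the points share 1 library each, and the rule cut the lung values from above, so these are given as a description. Hepatocyte markers were also present. All 7 were above 0 in lung, with a summed RPKM of 361, 6.05% of that in liver, and ALB was at 343, beside 2.58 in kidney and 1.12 or less in the other organs. Over the 7 organs other than liver and lung the summed level of the 7 markers was between 0.0562 in muscle at 240 days and 24.3 in kidney, where HNF4A gave 19.2. The part of hepatocyte RNA in the lung library in this result was not tested.

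**Figure D3:**
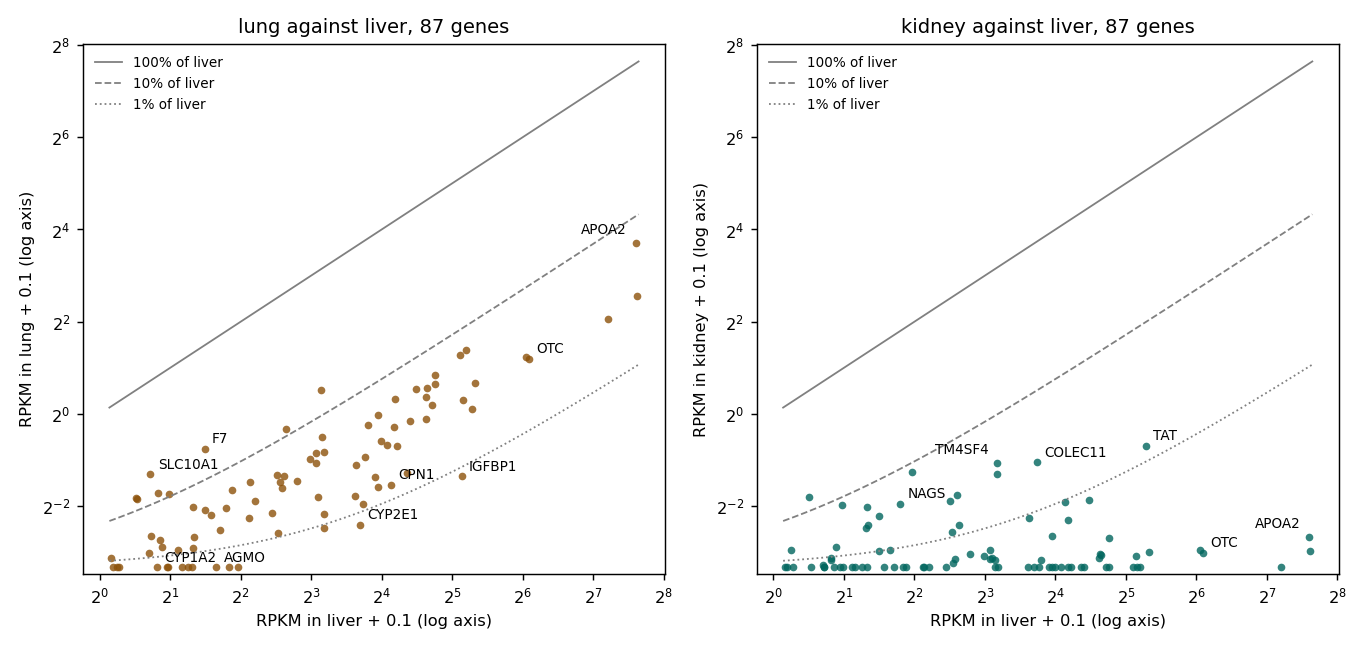
RPKM of the 87 genes in lung (left) and in kidney (right) against liver, each with 0.1 added and on log axes, where each point is 1 gene and the lines mark 100%, 10% and 1% of the liver value. In lung the points run along the liver value, with quartiles at 1.52% and 5.41% of it, and in kidney most points lie at the bottom whatever the liver value.

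The number of genes that met the rule depended on the organs counted, and only lung and kidney were left out in turn. When lung was left out, an alternative chosen after seeing the data, 148 genes met it, among them all 87 members. The 61 added genes had a median of 34.4 RPKM in liver, and their lung values were a median of 5.02% of liver, with quartiles of 3.73% and 10.8%. They met the rule only without their lung values, so these lung shares are a description of the choice. They included abundant plasma proteins. HRG was at 376 RPKM in liver and 18.9 in lung, TTR, transthyretin, at 350 and 14.2, AHSG, fetuin-A, at 345 and 12.2, APOC3 at 297 and 9.31, ITIH1 at 233 and 7.67, GC, the vitamin D-binding protein, at 206 and 10.4, APOB at 192 and 8.81, and HPX, haemopexin, at 188 and 6.80. In all, 23 of the 148 genes were at 100 RPKM or more in liver, against 3 of the 87, and the share of liver RPKM was 10.51% against 2.35%. ALB had 6.25% of its liver value in lung and a tau of 0.794 over all 9 organs. Leaving out kidney gave 145 genes, of which 62 were not members, and 13 of the 62 were also gained without lung.

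The second organ differed for a few genes. CYP2E1 was next highest in testis, at 0.668 RPKM (47 reads), with 0.0914 in heart, 0.0890 in lung and 0.0581 in adipose tissue. HAL in testis was at 0.268 (24 reads), 15.3% of liver, NPC1L1 at 0.104 (31 reads) and ONECUT1 at 0.467 (34 reads), 5.51% of liver. In kidney, COLEC11 was at 0.382, TM4SF4, a membrane protein, at 0.377 and HGFAC at 0.308, between 2.88% and 4.22% of liver. ENSSSCG00000030074 in kidney was at 14.1% of liver, the highest share there, VWCE was at 0.146, 6.08% of liver, and NAGS at 4.74%. BSPH1 was at 0.233 in ovary, 22.4% of liver, but this rested on 3 reads, and AGMO in adipose tissue on 3 reads as well. The highest value of a member in spleen was that of CPN1, 0.182 RPKM (11 reads).

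The genes near the limits are given once. Just inside the tau limit were SERPINA11 (0.9004), TM4SF4 (0.9005), ENSSSCG00000013372 (0.9006), CREB3L3 (0.9012) and ENSSSCG00000030074 (0.9012). Just outside were ENSSSCG00000025226 (0.8996), C8B (0.8983), ENSSSCG00000028936 (0.8981), ENSSSCG00000024252 (0.8980) and ENSSSCG00000015068 (0.8968). C8A and C8B, which encode chains of the same complement component, thus fell on opposite sides, with 35.4 and 44.6 RPKM in liver and 1.13 and 1.55 in lung. KCNH4 at 1.02, BSPH1 at 1.04 and ENSSSCG00000014656 at 1.08 RPKM were the members just above the level limit, and ENSSSCG00000023367 at 0.946, GDF2 at 0.892 and ENSSSCG00000007897 at 0.860 were just under it.

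The muscle libraries at day 0 and day 30 and the mixtures were not used by the rule. The rule did use muscle at 240 days and took genes low there. Low counts in the other muscle libraries follow in part from that choice, so nothing is read from the shares beside them. At day 0, 5 of the 87 genes were above 0, beside 61.3% of all Ensembl genes, and 2 reached 0.1 RPKM, beside 54.6% of all Ensembl genes. They were COLEC10, at 0.168 (11 reads, interval 0.0839 to 0.301), or 10.1% of its liver value, and OTC, at 0.112 (9 reads, interval 0.0511 to 0.212). At day 30, 19 genes were above 0 (beside 64.0% of all Ensembl genes) with 31 reads in all, and 3 reached 0.1 RPKM, beside 52.6% of all Ensembl genes. These were APOA2, ENSSSCG00000024929 and ENSSSCG00000005488, the 3 highest in liver, with 2 or 3 reads each. At 240 days 5 were above 0, beside 60.7% of all Ensembl genes, and none of the 87 reached 0.1 RPKM, beside 50.2% of all Ensembl genes. ALB was at 0 at day 0, 2.25 at day 30 and 0.0298 at 240 days.

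Between stages a gene was compared where 1 or both libraries listed it at 0.1 RPKM or more, on the log2(RPKM + 0.1) scale with a 2-fold limit. From 240 days, 2 of 2 such members were higher at day 0, beside 36.8% of 12594 Ensembl genes, and 0 of 2 were lower, beside 10.4%. With 3 of 3 the same held at day 30, beside 18.2% higher and 20.6% lower of 12380 genes. A member enters these counts only by its value at day 0 or 30, as none reached 0.1 at 240 days, so the direction was set by the limit. With 1 library per stage, no difference between stages could be shown for any member.

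In the muscle mixture 31 of the 87 genes were above 0, beside 79.6% of all Ensembl genes, and 8 reached 0.1 RPKM, beside 67.7% of all Ensembl genes. Of these OTC was the highest at 1.57 RPKM (223 reads, interval 1.37 to 1.79), 2.31% of its liver value. AGMO was at 0.418 (25 reads), IGFALS at 0.365 (46 reads), VWCE at 0.134 (27 reads) and COLEC11 at 0.104 (9 reads), and 2 of the 8 had no symbol. IGFALS was listed at 0 in the 3 single muscle libraries, where AGMO was at 0.0295 at day 0 (1 read) and 0 later. Of the 7 hepatocyte markers 4 were above 0 in the muscle mixture, with a summed RPKM of 0.892. The highest was CPS1 at 0.492, and ALB was at 0.332, below OTC, AGMO and IGFALS, although it was at 5495 in liver. The part of liver RNA in these values was not tested.

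In the tissue mixture 86 of the 87 genes were above 0, beside 88.8% of all Ensembl genes, and the same 86 were at 0.1 RPKM or more, beside 80.2%. Of the 87, 62 reached 1 RPKM (71.3%), beside 62.0% of all Ensembl genes. The gene at 0 in the mixture was ENSSSCG00000014656, which had 32 reads in liver. The summed RPKM of the members was 918, 59.4% of that in liver, and per gene the mixture was at a median of 38.4% of liver, with quartiles of 22.9% and 64.4%. On the log2(RPKM + 0.1) scale the median difference was -1.36 (mixture minus liver). The liver values chose the members, so a difference from liver below that of other genes follows from the choice, and nothing is read from the counts and medians beside all genes. Of the 87 genes 54 were at least 2-fold lower than in liver, beside 10.1% of the 5707 Ensembl genes with RPKM of at least 1 in liver, and 4 were at least 2-fold higher, beside 58.5%. The median over the 5707 genes was 1.31. Scaling the libraries to the same total moved both medians, to -2.67 and 0.01, and scaling to the same median ratio moved them to -3.72 and -1.06.

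The genes did not keep their liver proportions in the mixture. CYP2E1 was at 12.8 RPKM in liver (720 reads, interval 11.9 to 13.8) and 50.6 in the mixture (9993 reads, interval 49.6 to 51.6), a log2 difference of 1.97. CYP1A2 was at 1.65 and 5.18 (1.59 on the log2 scale), NNMT at 1.34 and 2.81 (1.01), HGFAC at 8.93 and 17.1 (0.93) and TM4SF4 at 8.94 and 11.7 (0.38). ENSSSCG00000005488 was at 147 in liver and 348 in the mixture (1.24). These directions depended on the scale. With the same total in each library CYP2E1 and CYP1A2 were still higher in the mixture by 0.64 and 0.30 and ENSSSCG00000005488 was at -0.10, and with the same median ratio all 87 genes were lower in the mixture. CYP2E1 and CYP1A2 were the 2 of 87 members above the median of the 5707 genes, beside 50.0% of those genes, a description for the same reason.

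At the other end, DNASE2B was at 18.1 RPKM in liver (737 reads, interval 16.8 to 19.4) and 0.314 in the mixture (45 reads, interval 0.229 to 0.420), a log2 difference of -5.46. ONECUT1 was at 8.47 and 0.513 (-3.80), SPP2 at 17.9 and 1.21 (-3.78), OTC at 68.1 and 6.61 (-3.35) and CPN1 at 17.5 and 1.97 (-3.08). These 5 had the lowest differences among members with a symbol, and all 5 were lower in the mixture on each scale. Of members without a symbol, ENSSSCG00000023415 (-4.79), ENSSSCG00000029401 (-4.42) and ENSSSCG00000024929 (-4.27) lay between DNASE2B and ONECUT1. OTC was above CYP2E1 by 68.1 to 12.8 RPKM in liver and below it by 6.61 to 50.6 in the mixture. CREB3L3, the other transcription factor, was at 12.3 and 6.48 (-0.91), against -3.80 for ONECUT1. Across the 87 genes, the mixture and liver had a Spearman rho of 0.751 and a Pearson r of 0.760 on the log2 scale, given as a description over genes of 2 libraries.

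**Figure D4:**
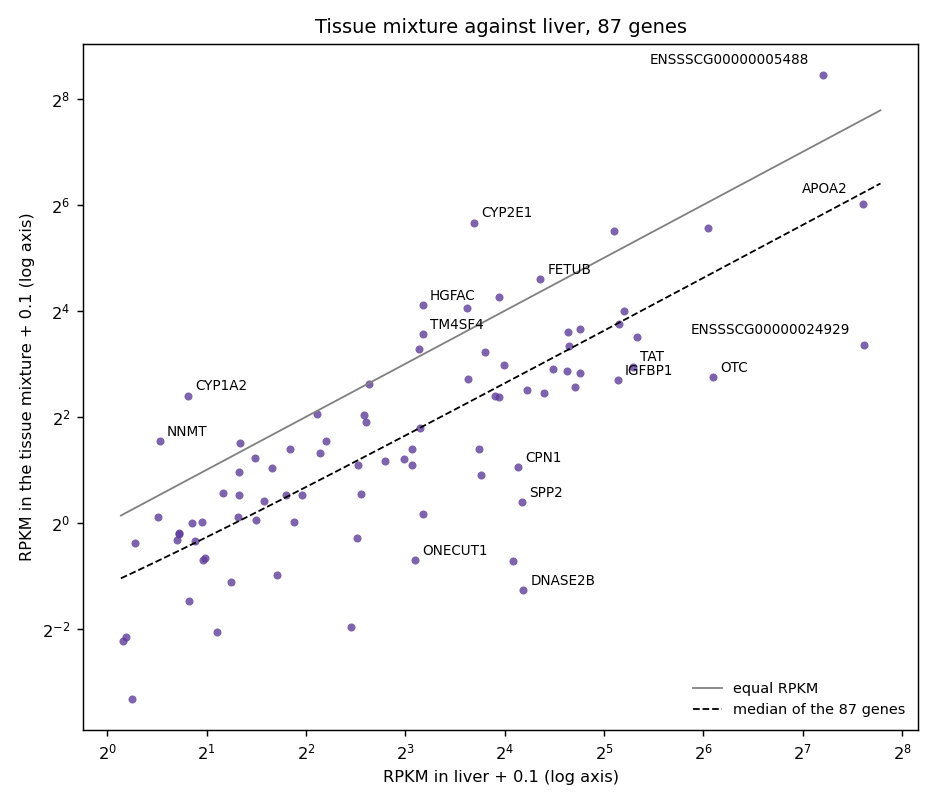
RPKM of the 87 genes in the tissue mixture against liver, each with 0.1 added and on log axes, where each point is 1 gene, the solid line marks equal RPKM and the dashed line the median of 38.4% of liver. CYP2E1, CYP1A2 and NNMT lie above the solid line and DNASE2B, ONECUT1 and SPP2 far below the dashed line, although CYP2E1, DNASE2B and SPP2 were between 12.8 and 18.1 RPKM in liver.

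Other markers also differed between the mixture and liver. AFP, alpha-fetoprotein, the albumin-like protein of fetal liver, was at 73.0 RPKM in the mixture (15730 reads) and 0.0816 in liver (5 reads), and HBB, the beta-globin gene, and ALAS2, an enzyme of haem synthesis in red cell precursors, were at 3577 and 96.4 in the mixture and 10.4 and 0.867 in liver. ALB was at 1322 in the mixture, 24.1% of its liver value. The mixture joined breeds, ages and tissues, which cannot be told apart here, and the part of each in the members' values was not tested.

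Sets of genes chosen by the same rule for kidney, spleen and heart give the values to set beside these, with no test. There were 124 kidney-restricted, 37 spleen-restricted and 21 heart-restricted genes. Lung was also the most frequent next organ of the spleen set, for 17 of 37 genes (45.9%), beside 60 of 87 (69.0%) for liver, while it was ovary for the kidney set (23 genes) and muscle at 240 days for the heart set (5 genes). Their summed RPKM in lung was 0.901%, 2.58% and 0.281% of that in their own organ, against 4.05% for the liver set. These shares are of RPKM as deposited, and the order of the liver and spleen sets depended on the scale. The factors for the same median ratio were 0.441 in liver, 0.856 in spleen and 1.33 in lung. Lung was above 0 for 42.7%, 54.1% and 28.6% of the kidney, spleen and heart sets, against 86.2% of the liver set, beside 77.9% of all Ensembl genes. In the tissue mixture 66.1%, 48.6% and 81.0% reached 1 RPKM, against 71.3%, and the summed RPKM was 13.6%, 16.9% and 92.3% of the own organ, against 59.4%.

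In the RefSeq annotation of another pig assembly, used for gene order only, 45 of the 46 named members were found by symbol, on 17 chromosomes. Only SERPINA6 and SERPINA11, members of the serpin family, lay within 3 positions of each other, with 2 protein-coding genes between them. They were at 15.3 and 7.84 RPKM in liver, 0.884 and 0.411 in lung, 0.0886 and 0.263 in ovary, and 5.08 and 2.19 in the tissue mixture. Whether reads shared with near-identical genes were split, as could touch the serpin, cytochrome P450 and alcohol dehydrogenase families, was not given in the sources used here.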

How the data were processed

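Values of all 13 libraries were used. The authors mapped reads with TopHat (1.3.2 in the submitters' processing notes), assembled transcripts with Cufflinks and deposited RPKM values. Counting with htseq-count was stated for lncRNAs. The genome build of these libraries, the counting of Ensembl genes, the use of strand and the reads that make up the RPKM total were not given in the sources used here. The members and lists were chosen with earlier results of these data known.

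Tau, levels and differences were computed in Python 3.11.15 with pandas 2.3.3 and numpy 2.4.6. Differences are on the log2(RPKM + 0.1) scale. With 1 library per group no test was made. The total reads of each library and the length of each gene were recovered as the smallest whole numbers that turn RPKM into whole reads, which was tested on simulated data. Lengths of 20 members above 0 in 1 to 3 libraries are less certain. Counting intervals are exact Poisson 95% intervals (scipy 1.17.1). For a count of 0, 3 reads were taken as the limit, which is below the upper end of that interval.

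Named genes were first chosen among members with a symbol. They were the 25 highest in liver, the 3 highest of each list and the 10 highest relative to liver outside the rule. Also taken were the 3 highest in each next organ and the 5 at each end of the mixture difference. The 5 genes on each side of the tau limit, with or without a symbol, and the transcription factor, urea cycle and bile acid lists were named too. SOAT2, ABCG8, COLEC10, KCNH4 and the other members with no symbol were named after their values were seen. Alternatives were other pseudocounts, limits and scalings, and, chosen after seeing the data, organs left out and a minimum of 20 reads. Promoter sequences were not used here, and some genes that the rule names are not reported here.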

Additional observations from a re-analysis of the deposited data

How the results depend on the processing

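Of 130 values recomputed under 11 alternatives, 48 stayed within the limits set for them and 82 moved. The limit for counts was a fold, so the 110 genes at the same total stayed within it beside 87. The medians had intervals over genes, 3.91 to 4.24 over the next organ and -1.66 to -1.02 for the mixture. The percent of liver RPKM had 2.33 to 2.36, computed as if it were a share of reads. Genes are not replicates, so these limits measure no spread between animals. Only the median difference of the tissue mixture from liver could have changed direction, and it stayed negative under each alternative. The other results were counts or were above 0 by construction. A minimum of 20 reads moved none. In the order of the number of liver-restricted genes, their percent of liver RPKM, the median log2 difference of liver over the next organ, and the genes next highest in kidney and in lung, the values were 87, 2.35, 4.05, 12 and 60. They became 30, 0.594, 4.77, 5 and 21 with a pseudocount of 0.01, and 181, 11.2, 2.89, 23 and 121 with 1. With RPKM of at least 5 in liver the first 4 were 52, 2.22, 4.36 and 3, and with no filter the first 3 were 170, 2.38 and 2.62. With tau of at least 0.95 the number was 25, the percent 0.217, kidney 5 and lung 14, and with 0.85 these were 153, 8.94, 22 and 103. Scaling to the same total gave 2.50% and a difference of 4.32, and scaling to the same median ratio gave 159, 4.91, 5.16, 22 and 97. Without lung the first 4 were 148, 10.51, 5.47 and 53, and without kidney the number was 145, the percent 4.93 and lung 114.

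In the tissue mixture the median log2 difference from liver was -1.36, with 62 genes at 1 RPKM or more and 5 at least 4-fold above the median difference. The median became -1.01 with a pseudocount of 0.01, -0.79 with no filter, -2.43 at the same total and -3.39 at the same median ratio, each with the genes chosen and the values taken under that setting. The 62 became 18 and 149 with pseudocounts of 0.01 and 1, 12 and 123 with tau of 0.95 and 0.85, 121 without lung and 117 without kidney. The 5 became 3 and 11 with pseudocounts of 0.01 and 1, 16 with no filter, 2 and 11 with tau of 0.95 and 0.85, 11 at the same total, 16 at the same median ratio, 11 without lung and 12 without kidney.

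In the muscle mixture 8 genes reached 0.1 RPKM, which became 1 and 28 with pseudocounts of 0.01 and 1, 5 with RPKM of at least 5, 15 with no filter, 1 and 17 with tau of 0.95 and 0.85, and 17 without lung. At day 0 in muscle 2 genes reached 0.1 RPKM, which became 0 and 8 with pseudocounts of 0.01 and 1, 1 with RPKM of at least 5, 4 with no filter, 0 and 4 with tau of 0.95 and 0.85, and 6 at the same median ratio. The 2 genes higher at day 0 than at 240 days became 0 with a pseudocount of 0.01, 1 with RPKM of at least 5, 4 with no filter, 0 and 4 with tau of 0.95 and 0.85, and 6 at the same median ratio. The 0 genes lower at day 0 became 1 with a pseudocount of 1, 2 with tau of 0.85, 1 at the same median ratio and 1 without lung. The cause was not tested. Fewer genes met a stricter limit by construction.

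No paired analysis was possible because each group was 1 library. No spread between animals is given, and intervals cover counting error only. Genes with few reads in liver, down to 19, have wide intervals, and a value of 0 in a single tissue was given a limit of 3 reads.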
